A study of Mus musculus with 6 samples.

Results

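Ketone bodies are small acids that the liver makes from fatty acids and that other organs burn when glucose is scarce or cannot be used. In a cell that burns them, β-hydroxybutyrate is oxidised to acetoacetate, acetoacetate receives coenzyme A from succinyl-CoA, and a thiolase splits the product into acetyl-CoA for the citrate cycle. The kidney takes up and oxidises ketone bodies, and monocarboxylate transporters in its tubules carry them across membranes together with lactate. The genes described here are 5 genes of ketone body synthesis and use, Oxct1, Bdh1, Bdh2, Acat1 and Slc16a1, taken by symbol from a table of 17684 genes. All 5 had a row, and all 5 were among the 13679 genes tested, those that reached 10 counts in 3 or more libraries.

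Kidney RNA was sequenced from 3 mice of the Db group and 3 mice of the Db + Ato10 group, 1 library per mouse. All 6 animals were db/db mice, which lack a working leptin receptor and become obese and diabetic. They were of the strain labelled C57 BLKS/L and were 50 weeks old when the kidneys were taken, so that the libraries describe mice still alive at that age. The Db group received normal saline for 40 weeks, and the Db + Ato10 group received atorvastatin, an inhibitor of cholesterol synthesis, at 10 mg/kg/day for 40 weeks. By the study's methods the mice were male, were fed chow and were dosed by oral gavage on part of each week. A field of the sample records gives atorvastatin for all 6 mice, and the groups used here follow the field that separates saline from atorvastatin. The comparison asks how the expression of these genes differed between kidneys of treated and untreated diabetic mice.

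The total count was 13134930, 11381678 and 12426051 for Db replicates 1 to 3, and 14578023, 14667909 and 13133241 for the same numbers of Db + Ato10. Levels are given as CPM, counts divided by the normalized size of each library. At these depths 3 counts correspond to between 0.198 and 0.260 CPM, a limit that covers counting error only. No 2 of the 15 pairs of libraries held the same counts (0 pairs). Several libraries stood apart from the rest of their group. Db replicate 1 had 2 counts over 4 Y-linked genes, where the other libraries had between 1419 and 2116, so that it goes against the study's statement that the mice were male. On the first principal component, which held 71.1% of the variance, the Db libraries lay between -55.4 and -26.9. Db + Ato10 replicates 1, 2 and 3 lay at 107, 46.1 and -18.8, so that replicates 1 and 3 both lay far from replicate 2. For the 5 genes, values without Db replicate 1, Db + Ato10 replicate 1 and Db + Ato10 replicate 3 are given below. For the other pathway genes they are given where leaving out a library gained a call.

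Oxct1 encodes the mitochondrial transferase that moves coenzyme A from succinyl-CoA to acetoacetate, the step that commits a cell to burning ketone bodies. Its level was 1596, 1147 and 1355 CPM in the Db libraries and 482, 426 and 975 CPM in the Db + Ato10 libraries. Every Db + Ato10 library lay below every Db library, and Db + Ato10 replicate 3 was the nearest to the Db group. The group means were 1366 ± 225 CPM in Db and 628 ± 302 CPM in Db + Ato10 (SD, n = 3 each). The log2 fold change of Db + Ato10 against Db was -1.12 with a standard error of 0.37, and the quasi-likelihood test of edgeR, adjusted over all tested genes by the Benjamini-Hochberg method, gave an adjusted p of 0.240, which did not pass. DESeq2 gave a log2 fold change of -1.11 and an adjusted p of 0.0488, under which Oxct1 was called lower. Without Db + Ato10 replicate 3 the edgeR value was -1.58 with an adjusted p of 0.0304, and without Db replicate 1 it was -0.98 with an adjusted p of 0.588. Without Db + Ato10 replicate 1 it was -0.96 with an edgeR adjusted p of 0.392. Over the settings that kept all 6 libraries the adjusted p of Oxct1, from edgeR, DESeq2 or limma, ran from 0.0488 to 0.373. In bulk kidney RNA, fewer cells of a type that expresses a gene and less of its RNA per cell cannot be told apart.

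Acat1 encodes the mitochondrial acetoacetyl-CoA thiolase, which splits acetoacetyl-CoA after the step of Oxct1 and also acts in the breakdown of isoleucine. It stood at 587, 511 and 539 CPM in the Db libraries and at 211, 303 and 493 CPM in the Db + Ato10 libraries. The groups did not overlap, but the gap between the lowest Db library and Db + Ato10 replicate 3 was small beside the spread within the Db + Ato10 group. Its means were 546 ± 38.2 CPM and 336 ± 144 CPM (SD, n = 3 each), and its log2 fold change was -0.70 with a standard error of 0.32 and a Benjamini-Hochberg adjusted p of 0.322 in edgeR. Without Db + Ato10 replicate 3 it was -1.08 with an edgeR adjusted p of 0.0465, the single setting in which Acat1 was called. Without Db + Ato10 replicate 1 it was -0.45, with an edgeR adjusted p of 0.494. Without Db replicate 1 it was -0.64, with an edgeR adjusted p of 0.608.

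Bdh1 encodes the mitochondrial enzyme that interconverts β-hydroxybutyrate and acetoacetate, and so stands at the end of ketone body synthesis and at the start of ketone body use. The Db libraries held 137, 62.6 and 145 CPM and the Db + Ato10 libraries 40.7, 49.7 and 111 CPM. Db replicate 2 was low within its group and Db + Ato10 replicate 3 was high within its own, so that the groups overlapped. The means were 115 ± 45.4 CPM and 67.0 ± 38.0 CPM (SD, n = 3 each). The log2 fold change was -0.78 with a standard error of 0.47, and the adjusted p from edgeR with Benjamini-Hochberg adjustment was 0.414. Leaving out Db + Ato10 replicate 3 gave -1.34 (edgeR adjusted p of 0.0865), and leaving out Db replicate 1 gave -0.63 (edgeR adjusted p of 0.672). Without Db + Ato10 replicate 1 it was -0.52 (edgeR adjusted p of 0.669).

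Bdh2 encodes a cytosolic dehydrogenase that can act on β-hydroxybutyrate and that is also known for making a mammalian siderophore, a small molecule that binds iron. Its values were 249, 207 and 309 CPM in Db and 66.7, 139 and 279 CPM in Db + Ato10. Db + Ato10 replicate 1 was the lowest of the 6 libraries, and Db + Ato10 replicate 3 lay within the range of the Db group. The means of 255 ± 51.3 CPM and 161 ± 108 CPM (SD, n = 3 each) gave a log2 fold change of -0.66, with a standard error of 0.49 and an edgeR Benjamini-Hochberg adjusted p of 0.484. Leaving out Db + Ato10 replicate 3 gave -1.31, leaving out Db + Ato10 replicate 1 gave -0.28 and leaving out Db replicate 1 gave -0.67, so that the size of the difference rested on single libraries.

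Slc16a1 encodes MCT1, a transporter that carries ketone bodies, lactate and pyruvate together with a proton. Its level was 100.4, 93.2 and 30.5 CPM in the Db libraries and 75.4, 120 and 61.5 CPM in the Db + Ato10 libraries. All Db + Ato10 values but the highest lay within the range of the Db group, in which replicate 3 was far under the others. The means were 74.7 ± 38.4 CPM and 85.5 ± 30.3 CPM (SD, n = 3 each), a log2 fold change of 0.19 with a standard error of 0.47 and an edgeR Benjamini-Hochberg adjusted p of 0.835. Its sign turned when Db replicate 3 (-0.18) or Db + Ato10 replicate 2 (-0.11) was left out, so that no direction is given for it. Leaving out Db replicate 1 gave 0.48, leaving out Db + Ato10 replicate 1 gave 0.29 and leaving out Db + Ato10 replicate 3 gave 0.39. With 1 library left out in turn, the 4 enzymes were below 0 each time.

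**Figure D1:**
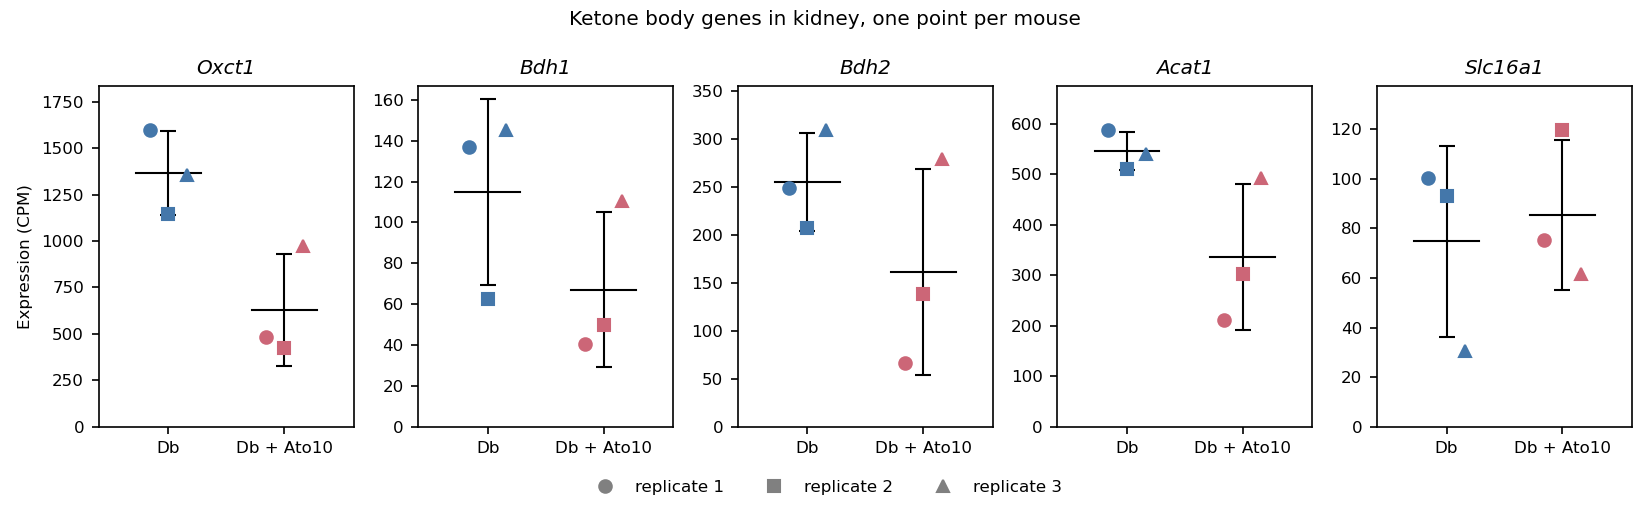
Expression of the 5 genes in CPM (normalized counts, linear axis from 0, a scale of its own for each gene) in each of the 3 Db and 3 Db + Ato10 libraries; symbols are replicates, horizontal lines are group means and bars are 1 SD. For Oxct1 and Acat1 all Db + Ato10 points lie under all Db points, with Db + Ato10 replicate 3 nearest to the Db group, at 975 CPM for Oxct1 and 493 CPM for Acat1.

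Of the 5 genes, 0 met both criteria of a call, a fold change over 1.5 and an edgeR adjusted p under 0.05, and the same was true of 0% of the 13679 genes tested. At an unadjusted p-value under 0.05 in edgeR, 1 of the 5 was lower, Oxct1, beside 5.71% of all tested genes, and 0 were higher, beside 11.2%. The groups did not overlap for 2 of the 5, Oxct1 and Acat1, both lower in Db + Ato10, beside 11.3% of all tested genes, and for 0 of the 5 with Db + Ato10 higher, beside 12%. DESeq2 called 1 of the 5, Oxct1, beside 6.48% of 13635 genes. Without Db + Ato10 replicate 3, edgeR called 2 of the 5, Oxct1 and Acat1, beside 8.18% of 13517 genes. The median log2 fold change of the 5 was -0.70, and that of all tested genes was -0.006. With 3 libraries in each group an exact permutation test of a single gene cannot give a p-value under 0.1. The 5 genes were chosen with earlier results of these data known, so the shares above are a description.

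Levels of different genes were compared as TPM, a share of all transcripts in a library, which the authors scaled to transcript length. In the Db group Oxct1 was the most abundant of the 5, with 687 ± 112 TPM, followed by Bdh2 with 428 ± 85.6 TPM, Acat1 with 284 ± 19.4 TPM, Bdh1 with 65.1 ± 25.7 TPM and Slc16a1 with 29.2 ± 15.05 TPM (SD, n = 3 each). The ranges of Oxct1, Bdh2, Acat1 and Bdh1 over the Db libraries did not touch, while those of Bdh1 (35.5 to 82.1 TPM) and Slc16a1 (11.9 to 39.2 TPM) overlapped. In the Db + Ato10 group the levels were 297 ± 142 TPM for Oxct1, 258 ± 172 TPM for Bdh2, 165 ± 72.0 TPM for Acat1, 35.8 ± 20.4 TPM for Bdh1 and 31.9 ± 12.8 TPM for Slc16a1. There the ranges of Oxct1 (213 to 461 TPM), Bdh2 (101 to 441 TPM) and Acat1 (98.0 to 241 TPM) overlapped, as did those of Bdh1 and Slc16a1. The highest of the 5 was Oxct1 in each Db library and in Db + Ato10 replicates 1 and 3, and Bdh2 (231 TPM, against 213 TPM for Oxct1) in Db + Ato10 replicate 2.

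Over the 6 libraries the log2 CPM of the 4 enzymes moved together. Pearson's r between pairs of Oxct1, Bdh1, Bdh2 and Acat1 ran from 0.82 for Oxct1 and Bdh2 to 0.96 for Bdh2 and Acat1, and r between Slc16a1 and each enzyme ran from -0.54 to -0.28. These 6 points are libraries of 2 groups and share the difference between them, so the values are a description without a test. Of 10019 tested genes with a mean of at least 10 CPM, 691 had an r over 0.9 with Oxct1, 481 with Bdh1, 1179 with Bdh2, 1210 with Acat1 and 35 with Slc16a1. The patterns nearest to Oxct1 were those of Hnrnph3, Taf6 and P3h2 (r of 0.999, 0.995 and 0.994), and those nearest to Acat1 were Klf12, Fastkd2 and Arhgap10 (0.998 each). The nearest to Bdh1 were Naa60, Kifc3 and Atxn2, to Bdh2 Trim37, Apeh and Vdac1, and to Slc16a1 Kars, Lrig2 and Srek1. Values this high are common when r rests on 6 libraries and many genes are searched.

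Proximal tubule cells reabsorb most filtered solutes and are a main site of fatty acid and ketone body oxidation in the kidney. The 12 proximal tubule markers, of which Slc34a1 was the most abundant, summed to 12097, 8732 and 11462 CPM in the Db libraries and to 1691, 5559 and 11626 CPM in the Db + Ato10 libraries. The sum was lowest in Db + Ato10 replicate 1, where Bdh1, Bdh2 and Acat1 were also lowest, and in Db + Ato10 replicate 3 it was as high as in the Db group. At an unadjusted p-value under 0.05 in edgeR 0 of the 12 passed. By that measure 5.71% of all tested genes were lower and 11.2% were higher. After adjustment 0 genes of the marker lists were called. Oxct1 was at 482 and 426 CPM in Db + Ato10 replicates 1 and 2, where the marker sum was 1691 and 5559 CPM. The 7 markers of the thick ascending limb, led by Umod, summed to 8698, 9463 and 8887 CPM in Db and to 4761, 2295 and 6229 CPM in Db + Ato10, and 5 of the 7 were lower at an unadjusted p-value under 0.05. This sum and Oxct1 were both lowest in Db + Ato10 replicate 2, and so were the sums of 6 further lists. There the distal convoluted tubule markers summed to 718 CPM (4 of 5 lower at an unadjusted p-value under 0.05), the collecting duct markers to 442 CPM (6 of 9 lower), the podocyte markers to 206 CPM (0 of 6 lower) and the endothelial markers to 145 CPM (1 of 6 lower). In Db + Ato10 replicate 1, by contrast, the podocyte sum (604 CPM) and the endothelial sum (371 CPM) were the highest of the 6 libraries. In Db + Ato10 replicate 2 the erythroid sum was 195 CPM and the fat cell sum was 37.9 CPM (0 of 2 tested markers lower). The 1 lower erythroid marker of 5 tested was Slc4a1, which is also among the 6 of the collecting duct. In the Db libraries the erythroid sum was 781, 684 and 2700 CPM, so that Db replicate 3, where Slc16a1 was lowest, stood apart.

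Marker sums of cells that enter or line an injured kidney were above the Db range in Db + Ato10 replicates 1 and 2. The 10 leukocyte markers, led by Cd74, summed to 330, 471 and 367 CPM in Db and to 4800, 3771 and 448 CPM in Db + Ato10. All 8 of them that were tested were higher at an unadjusted p-value under 0.05 in edgeR, beside 11.2% of all tested genes. The 6 injured tubule markers, led by Spp1, summed to 2922, 3464 and 1859 CPM and to 14404, 30289 and 9560 CPM, and all 6 were higher by that measure. The 7 fibroblast and matrix markers, led by Col1a2, summed to 74.4, 139 and 94.2 CPM and to 1469, 607 and 199.996 CPM, with all 7 higher. The leukocyte sum of Db + Ato10 replicate 3 lay within the range of the Db group, while its other sums were above that range. A list of 8 squamous and urothelial markers, led by Krt5, summed to at most 6.20 CPM in Db and to 168, 92.8 and 27.7 CPM in Db + Ato10. Most of that sum came from the keratins Krt5 (74.2, 39.8 and 11.7 CPM in Db + Ato10), Krt14 and Krt15, which reached 10 counts in the Db + Ato10 libraries alone. The urothelial genes Upk1a, Upk1b, Upk2 and Upk3a overlapped between the groups, and Upk1a had a log2 fold change of -0.66. Of the 5 fat cell markers with a row, Adipoq, Plin1 and Cfd had at most 3 counts in each library. Fabp4, which endothelium also expresses, was the most abundant, at 88.9, 62.9 and 62.1 CPM in Db and at 162, 36.3 and 82.5 CPM in Db + Ato10, with overlapping groups. Cidec was at 0.318, 0.347 and 0.485 CPM in Db and at 0.922, 1.62 and 0.945 CPM in Db + Ato10, and reached the 10 counts needed for the test in the Db + Ato10 libraries alone, so that its test could point only upward. Of the 4 skeletal muscle markers with a row, Ckm and Tnnt3 had at most 3 counts in each library, Acta1 at most 6 and Mb at most 7. The part of these cell types in the values of the ketone body genes was not tested.

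The other genes of the pathway were described from lists of ketone body use, monocarboxylate transport, receptors, leucine breakdown, thiolases, the citrate cycle, pyruvate use, regulators and iron handling. These lists were chosen with earlier results of these data known, so their shares are a description and not a test of the pathway. Together with the 5 genes above, 61 genes of these lists had a row and 56 were tested. Of these, 0 were called by edgeR. Higher at an unadjusted p-value under 0.05 were 5, beside 11.2% of all tested genes, and lower were 8, beside 5.71%. The groups were apart with Db + Ato10 higher for 4, beside 12%, and with Db + Ato10 lower for 15, beside 11.3%. Their median log2 fold change was -0.47, and it was -0.44 over the 51 tested genes other than the 5. DESeq2 called 7 of the 56 (12.5%), beside 6.48% of all genes. Leaving out Db + Ato10 replicate 3, edgeR called 14 of 55 (25.5%), 11 of them lower, beside 8.18% of all genes, and it called 0 with any other single library left out. Db + Ato10 replicate 3 was the Db + Ato10 library nearest to the Db group on the first principal component. Calls gained by leaving it out, here and below, rest on that choice and are no independent support. Beside Oxct1, the genes DESeq2 called were Acadsb, Ppargc1a and Slc16a7, lower in Db + Ato10, and Slc16a3, Hcar2 and Lcn2, higher. Hcar2 is also among the 5 higher genes and the 4 with groups apart and Db + Ato10 higher. It reached the 10 counts needed for the test in the Db + Ato10 libraries alone, so that its direction was set by the filter. Its call, and its place in these counts and in the 7 of DESeq2, support nothing.

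**Figure D2:**
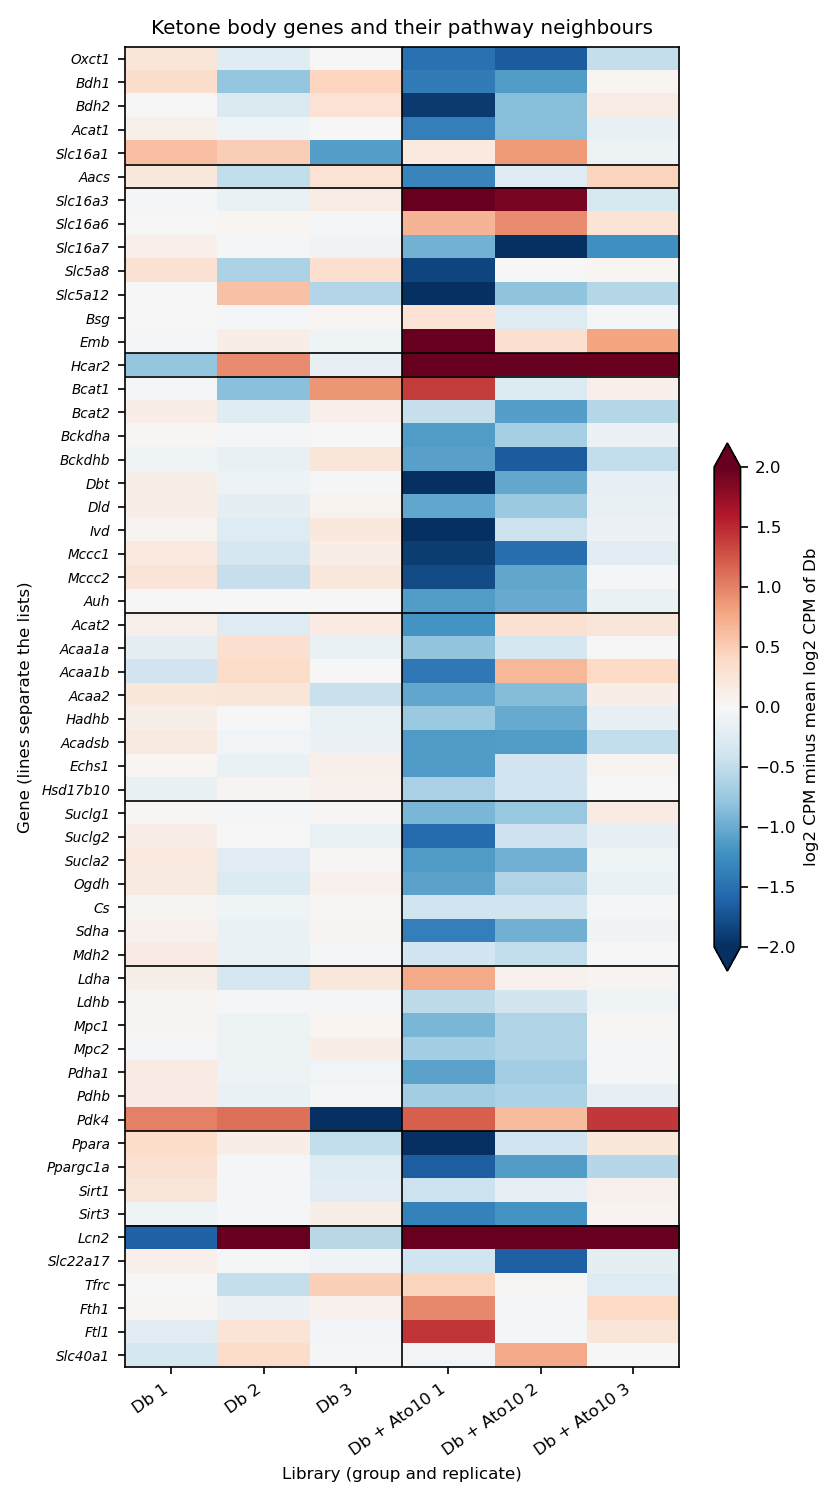
Log2 CPM of the 56 tested pathway genes in each library minus the mean log2 CPM of the 3 Db libraries (color scale from -2 to 2, with values beyond it shown in the end colors); rows are genes, lines separate the lists, and columns are the 3 Db and 3 Db + Ato10 libraries. Most genes of leucine breakdown and of the citrate cycle are below 0 in Db + Ato10 replicates 1 and 2 and near 0 in Db + Ato10 replicate 3.

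Oxct2a and Oxct2b, relatives of Oxct1 known from the testis, were at most 0.630 and 0.260 CPM in each library and were not tested. Aacs, the cytosolic enzyme that activates acetoacetate for lipid synthesis, had a log2 fold change of -0.25, and its groups overlapped.

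Among the transporters, Slc16a7 encodes MCT2, a carrier with a high affinity for monocarboxylates. It stood at 330, 299 and 290 CPM in the Db libraries and at 158, 65.4 and 131 CPM in the Db + Ato10 libraries. Every Db + Ato10 library was under every Db library, including Db + Ato10 replicate 3. The log2 fold change was -1.38 with a standard error of 0.32. It was not called by edgeR (Benjamini-Hochberg adjusted p of 0.239) and was called by DESeq2 (-1.37, adjusted p of 0.00579); over the settings with all 6 libraries the adjusted p ran from 0.00579 to 0.373 (edgeR, DESeq2 and limma). Slc16a3, which encodes MCT4, the carrier that glycolytic cells use to export lactate, was at 1.99, 1.82 and 2.26 CPM in Db and at 166, 7.90 and 1.58 CPM in Db + Ato10. Its log2 fold change of 4.84 came to 1.24 without Db + Ato10 replicate 1 and to 5.42, with a call, without Db + Ato10 replicate 3 (edgeR adjusted p of 0.04999). With all 6 libraries it was 2.74 with the replicate number as a block and 2.78 with limma-voom. By limma it was 2.15 on log2(FPKM + 1) and 2.23 on log2(TPM + 1). The groups overlapped.

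Slc16a6 was at 33.5, 34.7 and 33.1 CPM in Db and at 54.3, 64.9 and 40.9 CPM in Db + Ato10, with the groups apart and a log2 fold change of 0.66. Leaving out Db + Ato10 replicate 3 gave 0.82 and a call (edgeR adjusted p of 0.0344). Emb, the partner protein that brings MCT2 to the cell surface, was at 33.0, 36.9 and 31.7 CPM in Db and at 140, 42.4 and 58.2 CPM in Db + Ato10, also apart, with a log2 fold change of 1.25 that came to 0.58 without Db + Ato10 replicate 1. Emb and Slc16a7 thus differed in opposite directions in these libraries. Bsg, the partner of MCT1, had a log2 fold change of 0.02. The sodium-coupled carriers Slc5a8 (-0.44) and Slc5a12 (-1.16), which take up monocarboxylates from the tubular fluid, overlapped between the groups, and Slc5a12 is also 1 of the proximal tubule markers.

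Hcar2, a receptor on myeloid and fat cells that is activated by β-hydroxybutyrate, was near the limit of counting in the Db group. It had 0, 4 and 1 counts in the Db libraries and 1007, 98 and 11 in the Db + Ato10 libraries, and was not tested when any Db + Ato10 library was left out. Its level was 0, 0.347 and 0.0808 CPM in Db and 66.3, 6.62 and 0.866 CPM in Db + Ato10, so that each Db + Ato10 library was above each Db library. Its order over the Db + Ato10 libraries was that of the leukocyte sum, 4800, 3771 and 448 CPM, and the part of these cells in the level of Hcar2 was not tested. Ffar3, a further receptor for short acids, was under 0.4 CPM in each library.

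Leucine breakdown yields acetoacetate and acetyl-CoA. Of its 10 tested genes 9 had a log2 fold change below 0, beside 6922 of all 13679 tested genes. The groups were apart with Db + Ato10 lower for 5 of the 10, beside 11.3% of all tested genes. Bcat2, the mitochondrial transaminase that starts leucine breakdown, was at 127, 97.1 and 124 CPM in Db and at 83.3, 53.5 and 77.8 CPM in Db + Ato10. Bckdhb, a subunit of the branched-chain dehydrogenase complex, was at 68.9, 66.3 and 86.8 CPM and at 34.6, 23.0 and 52.4 CPM. In both genes the groups did not overlap and Db + Ato10 replicate 2 was the lowest library, with log2 fold changes of -0.70 and -1.01. Auh (-0.68), Bckdha (-0.57) and Dbt (-0.91) had groups apart as well, and Dld, Ivd, Mccc1 and Mccc2 had overlapping groups with values from -1.04 to -0.60. Single libraries moved several of these values. When Db + Ato10 replicate 1 was left out, Bckdha came to -0.36 and Dbt to -0.53. When Db + Ato10 replicate 3 was left out, Bckdha came to -0.86 and Dbt to -1.49 without a call, while edgeR called Bckdhb (-1.36, adjusted p of 0.0356), Auh (-1.06, adjusted p of 0.0279) and Mccc1 (-1.71, adjusted p of 0.0287). Bcat1, the cytosolic transaminase, was the exception at 0.44.

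Of the 8 thiolase and isoleucine genes 7 were below 0, beside 6922 of all 13679 tested genes. Acadsb, which acts on branched acyl-CoA from isoleucine upstream of Acat1, was at 237, 201 and 194 CPM in Db and at 95.4, 96.2 and 149 CPM in Db + Ato10. Its groups were apart, with a log2 fold change of -0.89, and DESeq2 called it with an adjusted p of 0.0151 where edgeR gave 0.239. It was called by edgeR too, at -1.13, once Db + Ato10 replicate 3 was left out (adjusted p of 0.0287). Hadhb, the thiolase subunit of the trifunctional protein of fatty acid oxidation, was at 503, 464 and 424 CPM and at 276, 229 and 415 CPM, apart by a narrow margin. The cytosolic thiolase Acat2, the relative of Acat1 in sterol synthesis, had a log2 fold change of -0.08.

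Oxct1 draws on succinyl-CoA. The 7 succinyl-CoA and citrate cycle genes were all below 0, beside 6922 of all 13679 tested genes. Their log2 fold changes ran from -0.69 for Sdha to -0.27 for Cs. Suclg2, a subunit of the ligase that otherwise consumes succinyl-CoA, was at 610, 550 and 507 CPM in Db and at 190, 417 and 496 CPM in Db + Ato10, with the groups apart at the narrow gap between 507 and 496 CPM. Its log2 fold change of -0.60 came to -0.28 without Db + Ato10 replicate 1. With Db + Ato10 replicate 3 left out, edgeR called Sdha (-1.15, adjusted p of 0.0422), Sucla2 (-1.05, adjusted p of 0.0358) and Suclg1 (-0.83, adjusted p of 0.0401). The difference in Oxct1, -1.12, was larger in size than that of each of these 7 genes, but the difference between them was not tested. In the list of lactate and pyruvate use, Pdhb (-0.49) and Ldhb (-0.32) had groups apart, while Ldha (0.32) and Pdk4 (0.56) were above 0 and overlapped.

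Ppargc1a encodes a coactivator that raises mitochondrial gene expression, Oxct1 and Bdh1 included in some tissues. It was at 150, 118 and 101 CPM in the Db libraries and at 38.7, 56.0 and 81.8 CPM in the Db + Ato10 libraries. The groups did not overlap, with a log2 fold change of -1.06, a standard error of 0.30 and an edgeR Benjamini-Hochberg adjusted p of 0.239, and DESeq2 called it with an adjusted p of 0.0346. Ppara (-0.56), Sirt3 (-0.68) and Sirt1 (-0.17) overlapped between the groups. Without Db + Ato10 replicate 3, edgeR called Ppargc1a (-1.37, adjusted p of 0.0372) and Sirt3 (-1.27, adjusted p of 0.0260). Fgf21 was at most 0.795 CPM.

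Bdh2 also belongs to iron handling, where its product is carried by Lcn2, a siderophore-binding protein that injured tubules release. Lcn2 is also 1 of the 6 injured tubule markers counted above. It was at 3.02, 43.5 and 6.46 CPM in Db and at 5088, 868 and 308 CPM in Db + Ato10. All Db + Ato10 libraries were above all Db libraries, with a log2 fold change of 6.89 that DESeq2 called (adjusted p of 0.00054) and edgeR did not (0.239, Benjamini-Hochberg). Leaving out Db + Ato10 replicate 1 gave 5.08, and leaving out Db replicate 2 gave 8.78. It was 7.40, with an edgeR call, once Db + Ato10 replicate 3 was left out (adjusted p of 0.0413). Slc22a17, a receptor for Lcn2, was at 19.6, 17.9 and 17.4 CPM in Db and at 13.8, 5.81 and 16.1 CPM in Db + Ato10, apart and lower, with a log2 fold change of -0.62 that came to -0.28 when Db + Ato10 replicate 2 was left out. The iron genes Tfrc, Fth1, Ftl1 and Slc40a1 had overlapping groups.

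Transcripts were deposited as well, and Oxct1, Acat1 and Slc16a1 had 1 transcript each, while Bdh1 and Bdh2 had 2 each. Of 30175 transcripts tested with edgeR 0 were called (0%), among them 0 of the 7 of these genes, of which 2 were lower at an unadjusted p-value under 0.05, beside 2.81% of all tested transcripts, and DESeq2 called 0 of the 7, beside 889 of 29994 transcripts (2.96%). The transcripts of Bdh1 share their coding exons and differ in the first exon and in the length of the last. NM_175177.4 was estimated at 89.6, 22.2 and 84.6 CPM in Db and at 4.14, 15.8 and 81.3 CPM in Db + Ato10, far apart within both groups. NM_001122683.1 was estimated at 47.2, 40.4 and 60.5 CPM in Db and at 36.6, 33.9 and 29.2 CPM in Db + Ato10, and these groups did not overlap. The spread of Bdh1 between libraries lay in NM_175177.4, which made up 65.5%, 35.4% and 58.3% of the counts of Bdh1 in Db and 10.2%, 31.7% and 73.6% in Db + Ato10. Its log2 fold change was -0.95 with a standard error of 1.08, and that of NM_001122683.1 was -0.53 with a standard error of 0.21; the edgeR Benjamini-Hochberg adjusted p-values were 0.858 and 0.594. The split rests on the reads that the counting tool could assign to either transcript and has no error of its own here. The shares of the Bdh2 transcript NM_001172055.1 were steadier, between 62.9% and 77.2% over the 6 libraries.

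**Figure D3:**
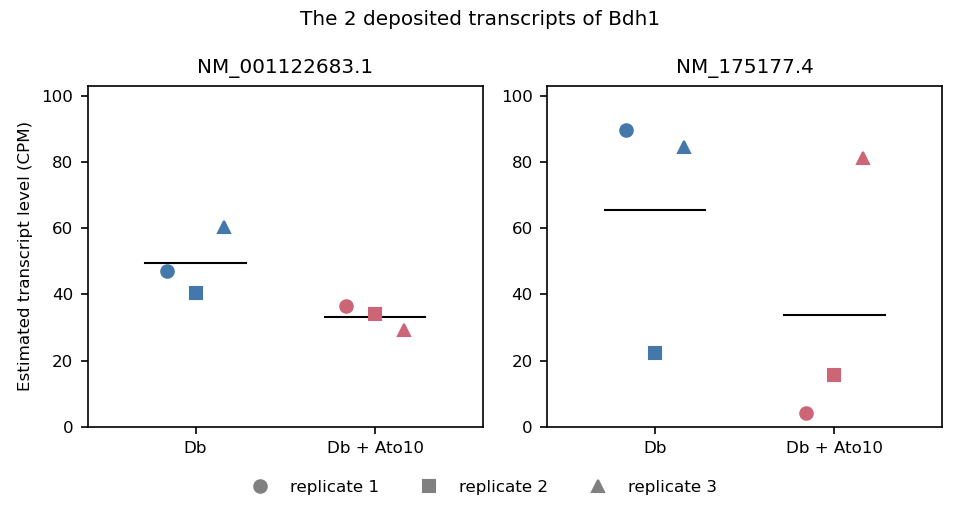
Estimated level in CPM (linear axis from 0) of the 2 Bdh1 transcripts in each library; symbols are replicates and horizontal lines are group means. NM_175177.4 ranges from 4.14 to 89.6 CPM and its groups overlap, while NM_001122683.1 stays between 29.2 and 60.5 CPM with all Db + Ato10 points under all Db points.

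The starts of the 2 Bdh1 transcripts lie in separate promoter windows of the RefSeq promoter table (mouse build GRCm38.p6, 300 bases each), which are shown because the transcripts varied differently between libraries. NM_175177.4 starts in chr16:31422047-31422346 and NM_001122683.1 in chr16:31428503-31428802, both on the plus strand. Capitals mark the letters CG, a pair that reads the same on both strands. The window of NM_175177.4 holds 7 such pairs with 48.3% G and C, and 52.1% of the 32851 windows of the table hold at least as many. The window of NM_001122683.1 holds 17 with 63.7% G and C, a count that 31.4% of windows reach. These letters are a description and were not linked to expression.
Bdh1 window of NM_175177.4: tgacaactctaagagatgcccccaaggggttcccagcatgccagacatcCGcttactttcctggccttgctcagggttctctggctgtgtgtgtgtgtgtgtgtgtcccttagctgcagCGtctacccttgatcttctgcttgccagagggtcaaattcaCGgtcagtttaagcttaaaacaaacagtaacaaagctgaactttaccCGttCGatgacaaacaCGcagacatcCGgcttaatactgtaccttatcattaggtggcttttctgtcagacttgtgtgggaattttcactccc
Bdh1 window of NM_001122683.1: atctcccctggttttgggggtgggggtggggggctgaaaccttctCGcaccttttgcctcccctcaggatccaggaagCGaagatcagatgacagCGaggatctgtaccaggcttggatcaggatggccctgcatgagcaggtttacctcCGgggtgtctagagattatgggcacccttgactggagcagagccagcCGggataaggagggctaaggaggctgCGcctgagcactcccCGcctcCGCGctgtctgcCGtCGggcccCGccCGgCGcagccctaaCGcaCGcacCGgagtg

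Windows were also found for Oxct1, Bdh2 and Slc16a1, which hold 11, 6 and 42 CG pairs. That of Slc16a1 stood out, since 3.0% of all windows hold as many. Acat1 is named only.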

How the data were processed

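The labels gave each sample its group and replicate number. The values the authors deposited were expected counts for genes and transcripts (estimated reads, not normalized). For genes the authors added FPKM, relative to length and depth, and TPM, relative to length with a common total in each library. The submitters' processing notes name HISAT, Bowtie2 2.2.5 and the build mm9, and the counting tool is not given in the sources used here. Columns of group averages were not used, and 0 columns of unassigned samples were present. Counts were rounded, and genes that reached 10 counts in 3 or more libraries were tested with edgeR 4.0.16 under R 4.3.3, by TMM factors and the quasi-likelihood F test. A call needed a fold change over 1.5 and, after Benjamini-Hochberg adjustment over all genes tested, a p-value under 0.05. Standard errors were the log2 fold change divided by the root of F. The prior count of log2 CPM was 2. The steps were tested on simulated counts. Alternatives were DESeq2 1.42.0, limma 3.58.1 (voom, and log2 of FPKM or TPM plus 1), upper-quartile factors, other filters, no fold threshold, the replicate number as a block, and each library left out. Named genes were the 5 genes, all list genes with an unadjusted p-value under 0.05 or groups apart, with counts or ranges for others, and the 3 nearest patterns of each gene. Any other name was picked once its values had been seen. The members and lists were chosen with earlier results of these data known. A few list genes were counted and are not reported here. Promoter windows came from RefSeq and transcript starts from GENCODE annotation, both on GRCm38, a build other than that of the counts, so they were matched by gene and transcript name. Plots used matplotlib 3.10.9 (Python 3.11.15).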

Additional observations from a re-analysis of the deposited data

How the results depend on the processing

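With edgeR, limma-voom, limma on log2(FPKM + 1) or log2(TPM + 1), upper-quartile factors, either other filter or no fold threshold, and all 6 libraries, 0 of the 5 genes and 0 genes of the table were called. DESeq2 called 1 of the 5, 7 pathway genes and 884 genes in all, with Oxct1 at -1.11. With each library left out in turn, the 5 genes gave between 0 and 2 calls, the pathway lists between 0 and 14 and the whole table between 0 and 1106, and the upper values all came without Db + Ato10 replicate 3. The log2 fold changes then ran from -1.58 to -0.89 for Oxct1, from -1.08 to -0.45 for Acat1, from -1.34 to -0.52 for Bdh1 and from -1.31 to -0.28 for Bdh2. That of Slc16a1 ran from -0.18 to 0.48, where Db replicate 3 left out gave -0.18 and Db + Ato10 replicate 2 left out gave -0.11; the cause was not tested. Its sign held under the alternatives that kept all 6 libraries. Transcripts of the 5 genes were refitted with DESeq2, the replicate block and each library left out, with 0 calls among them.

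With the replicate number as a block, Oxct1 was at -1.21, Acat1 at -0.79, Bdh1 at -0.82, Bdh2 at -0.86 and Slc16a1 at 0.32, and the block gave 0 calls among the 5 genes, among the pathway genes and over the table, so that it changed no call. Deviations from the group means of libraries with the same number correlated at -0.15, 0.06 and 0.21. Those of libraries with different numbers ran from -0.37 to 0.31. With so few libraries these values cannot show whether the numbers pair the mice, and the numbers were not taken to do so.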
